A study of Mus musculus with 59 samples.

Results

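The transcription factors that specify spinal motor neurons were followed across embryoid bodies (EBs) exposed to mouse serum. The list named 10 genes, and 9 of them matched a symbol, ignoring case and reading a dot for a hyphen, among the 19613 genes of the table. They were the progenitor factors Olig2, Olig1, Neurog2 and Nkx6-1 and the postmitotic factors Mnx1, Isl1, Isl2, Lhx3 and Lhx4. Foxp1, which marks limb-innervating motor columns, had no row under that symbol and was not analysed here.

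EBs were grown from mouse embryonic stem cells that carry an HB9-eGFP reporter, a transgene driven by regulatory sequence of Hb9, the older name of Mnx1, and were turned towards spinal motor neurons with retinoic acid and a Hedgehog agonist. All EBs then received serum for 24 h. Carrier serum (29 arrays) came from males hemizygous for a human SOD1 (G93A) transgene, a mouse model of amyotrophic lateral sclerosis, before symptoms, and non-carrier serum (30 arrays) came from their littermates without the transgene. All donors were F1 progeny of C57BL/6 and SJL, at 9 weeks per the labels for 53 arrays and 10 weeks for 6. The EB line was the same for both sera, so the mutation was in the serum donors and not in the cells. RNA was hybridised to Affymetrix exon arrays, and each value is a gene-level intensity from robust multi-array averaging (RMA), used here as log2.

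The array titles part the samples, by a shared name or by stretches of consecutive numbers, into 9 runs, motorneuron, HB9MNs, A to F and 10-week, with 4 to 11 arrays each and both sera in each. Per the study's methods, assays were done in groups of 6 or 8 with a new batch of EBs each, so run C, with 11 arrays, holds more than 1 batch. Array medians lay between 151 and 183, and precision is limited by how many arrays there are. The mean Pearson's r of an array with the others of its run had a median of 0.993, and 1 carrier array of run E stood apart at 0.979, against 0.985 for the next lowest. That array was below every other array of run E for 8 of the 9 factors and above them for Neurog2, so results that rest on it are also given without it. The labels do not say that each array is a separate animal, so p-values measure the spread between arrays.

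Motor neurons arise from a ventral progenitor domain of the neural tube, called pMN, that is set by Sonic hedgehog and retinoic acid. Nkx6-1 and Pax6 place the domain and Olig2 defines it, with Olig1 encoded beside Olig2. Neurog2 is the proneural factor that drives cell cycle exit. In newborn motor neurons Isl1 and Lhx3 act in a complex held together by the cofactor Ldb1, Lhx4 overlaps in role with Lhx3, and Mnx1 and Isl2 hold the motor neuron identity against that of V2 interneurons. Progenitor factors such as Olig2 are switched off as postmitotic factors come on, and an EB holds cells at several of these stages. In such mixed tissue fewer cells of a type and less RNA per cell cannot be told apart.

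The start sites of 4 of these genes are shown because Olig2 and Isl2 gave the lowest correlation between a progenitor and a postmitotic factor, and because Mnx1 and Isl1 are postmitotic factors whose windows hold the 6-letter E-box. The windows run from 250 bases before to 50 bases after the start, on the gene's strand, from RefSeq on GRCm38.p6. Capitals mark CANNTG, the E-box read by basic helix-loop-helix factors such as Olig2 and Neurog2, and ATTA on either strand (TAAT on the other), the core read by many homeodomain factors such as Isl1, Lhx3, Mnx1 and Nkx6-1. These letters cannot overlap each other.
Olig2, chr16:91225300-91225599, plus strand: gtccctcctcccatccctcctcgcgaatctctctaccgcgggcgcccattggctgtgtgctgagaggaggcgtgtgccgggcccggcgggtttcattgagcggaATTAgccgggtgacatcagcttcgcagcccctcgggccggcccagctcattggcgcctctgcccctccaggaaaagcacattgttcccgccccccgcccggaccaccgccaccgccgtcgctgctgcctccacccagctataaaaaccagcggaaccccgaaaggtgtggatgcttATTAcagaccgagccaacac
Isl2, chr9:55540899-55541198, plus strand: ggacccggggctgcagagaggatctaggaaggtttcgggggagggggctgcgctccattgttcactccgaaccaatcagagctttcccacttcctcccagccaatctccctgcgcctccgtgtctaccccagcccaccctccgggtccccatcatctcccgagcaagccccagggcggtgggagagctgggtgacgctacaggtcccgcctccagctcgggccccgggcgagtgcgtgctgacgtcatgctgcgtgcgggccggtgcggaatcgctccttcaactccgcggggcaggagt
Mnx1, chr5:29478421-29478720, minus strand: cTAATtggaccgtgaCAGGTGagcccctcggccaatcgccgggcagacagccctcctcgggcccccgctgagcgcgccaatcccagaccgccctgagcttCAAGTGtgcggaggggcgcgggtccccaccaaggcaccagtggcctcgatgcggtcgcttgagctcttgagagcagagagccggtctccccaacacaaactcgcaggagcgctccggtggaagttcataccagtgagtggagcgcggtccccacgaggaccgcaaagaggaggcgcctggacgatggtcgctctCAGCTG
Isl1, chr13:116309639-116309938, minus strand: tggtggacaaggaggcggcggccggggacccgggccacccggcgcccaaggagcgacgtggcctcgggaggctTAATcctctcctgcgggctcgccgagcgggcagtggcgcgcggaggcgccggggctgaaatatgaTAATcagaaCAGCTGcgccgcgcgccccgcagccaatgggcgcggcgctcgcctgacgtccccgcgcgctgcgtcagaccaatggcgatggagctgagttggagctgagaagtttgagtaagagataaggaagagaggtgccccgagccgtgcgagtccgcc
Mnx1 held 3 E-boxes and 1 ATTA, Isl1 held 1 E-box and 2 ATTA, Olig2 held 2 ATTA and no E-box, and Isl2 held neither. One of the E-boxes of Mnx1 and the single E-box of Isl1 read CAGCTG. Of 32851 mouse promoter windows of the same length, 72.3% held CANNTG, 58.0% held ATTA and 16.3% held CAGCTG. RefSeq windows were found for 9 of the 10 listed genes, all but Olig1. The windows of Neurog2, Nkx6-1 and Lhx4 held no E-box, and of the 2 windows of Lhx3 1 held a single E-box. Each window of Foxp1 held at least 1 E-box. A match of letters is a description of the window, and no binding was measured.

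The first question was whether serum of SOD1 carriers changed the factors. All 4 progenitor factors had a lower mean level with carrier serum, Isl1 and Isl2 a higher one, and Mnx1, Lhx3 and Lhx4 a lower one, by at most 0.09 on the log2 scale. With limma and the run as a block, 0 of the 9 factors passed a Benjamini-Hochberg adjusted p of 0.05 over all genes, where 2.33% of all genes did. At an unadjusted p under 0.05 there were 7 of 9, all but Olig1 and Mnx1, where 20.7% of all genes lay under it. The 9 genes share arrays and are not independent of each other. Their median change was -0.07 against 0.02 over all genes. Single runs decided some calls. Without run C, Neurog2 (adjusted p = 0.0344) and Isl2 (0.0190) passed, where the share of all genes rose to 8.16%. Without run motorneuron, Olig2 (0.0119) and Lhx3 (0.0498) passed, where the share of all genes was 3.07%.

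Among the progenitor factors, Olig2 ranged from 8.33 over a median of 8.88 to 9.34 with carrier serum and from 8.30 over 9.00 to 9.35 with non-carrier serum, as log2 intensity. The 2 sera overlapped over almost the whole range. Within runs Olig2 was lower by 5.72% with carrier serum (log2 change -0.09 ± 0.03, SE, limma adjusted p = 0.0936), with a lower mean in 7 of 9 runs. Neurog2 ranged from 6.82 over 7.41 to 7.65 with carrier and from 6.94 over 7.49 to 7.81 with non-carrier serum. By mean intensity Neurog2 was the lowest of the 9 factors, at percentile 51.4 of all genes, against 72.1 to 95.7 for the others. Its change was -0.09 ± 0.03 (SE, limma adjusted p = 0.112), with a lower carrier mean in 8 of 9 runs. In 3 of them, HB9MNs, F and 10-week, the sera did not overlap. The share of all genes without overlap was not computed, so runs without overlap, here and below, only describe the arrays. In run F the carrier arrays of Neurog2 read 7.14, 7.21 and 7.27 and the non-carrier arrays 7.29, 7.37 and 7.37. In the 10-week run they read 6.82, 6.90 and 6.94 with carrier and 6.94, 7.02 and 7.09 with non-carrier serum, so that the groups were apart by less than 0.01.

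Nkx6-1, a homeodomain factor of the ventral neural tube that is needed for Olig2 there, ranged from 8.64 over 9.00 to 9.36 with carrier and from 8.78 over 9.07 to 9.39 with non-carrier serum. Its change was -0.08 ± 0.03 (SE, limma adjusted p = 0.138), with a lower carrier mean in 8 of 9 runs. Olig1 ranged from 7.73 over 8.60 to 9.19 with carrier and from 7.91 over 8.64 to 9.17 with non-carrier serum, and had the widest interval of the 9 factors, a change of -0.07 with a 95% confidence interval of -0.17 to 0.03. Its carrier mean was lower in only 3 of 9 runs. In run C the 6 carrier arrays of Olig1 lay between 8.40 and 8.84 and the 5 non-carrier arrays between 8.84 and 9.17 without overlap, a difference of -0.41. In run E the 3 carrier arrays read 7.73, 8.43 and 8.53 and the 3 non-carrier arrays 8.45, 8.64 and 8.72. The lowest of these is the array that stands apart. Without run C the change of Olig1 was 0.01, and with run C parted into 2 blocks at -0.07.

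Among the postmitotic factors, Isl2 had the largest estimate. It ranged from 8.86 over 9.58 to 10.00 with carrier and from 8.71 over 9.55 to 9.96 with non-carrier serum, and its level within runs was 6.73% higher with carrier serum (log2 change 0.09 ± 0.04, SE, limma adjusted p = 0.195). The carrier mean was higher in 7 of 9 runs, and in 4 of these, B, D, F and 10-week, the sera did not overlap. As for Neurog2, no share of all genes stands beside this count. In run B the carrier arrays of Isl2 read 9.76, 9.82 and 9.91 and the non-carrier arrays 9.48, 9.51 and 9.59. In run D they read 9.43, 9.44 and 9.48 with carrier and 9.27, 9.27, 9.29 and 9.31 with non-carrier serum. The carrier mean was lower by 0.13 in run C and by 0.08 in run E, which holds the array that stands apart. In run E the sign rested on that array, at 9.40. The other carrier arrays of run E read 9.93 and 10.00, and the non-carrier arrays 9.77, 9.83 and 9.96. Without run C the change of Isl2 was 0.14 (adjusted p = 0.0190), past the threshold.

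Isl1, the LIM homeodomain factor that Isl2 resembles, ranged from 10.29 over 10.53 to 10.82 with carrier and from 10.29 over 10.49 to 10.74 with non-carrier serum. Its change was 0.05 ± 0.02 (SE, limma adjusted p = 0.114), with a higher carrier mean in 6 of 9 runs. Their partner Lhx3 went the other way, with a range of 8.31 over 9.03 to 9.33 with carrier and 8.77 over 9.05 to 9.46 with non-carrier serum. The change of Lhx3 was -0.09 ± 0.03 (SE, limma adjusted p = 0.105), with a lower carrier mean in 7 of 9 runs. In run A the carrier arrays of Lhx3 read 8.85, 8.93 and 8.95 and the non-carrier arrays 9.04, 9.05 and 9.05, whereas in HB9MNs the carrier arrays were the higher ones. The lowest carrier value of Lhx3 is that of the array that stands apart, and without it the change was -0.07.

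Lhx4 ranged from 9.34 over 9.84 to 10.12 with carrier and from 9.51 over 9.88 to 10.08 with non-carrier serum, a change of -0.05 ± 0.02 (SE, limma adjusted p = 0.195). Mnx1, the gene whose regulatory sequence drives the reporter, ranged from 8.35 over 8.85 to 9.21 with carrier and from 8.56 over 8.89 to 9.17 with non-carrier serum. Its change was -0.03 with a 95% confidence interval of -0.11 to 0.04 (limma adjusted p = 0.588), and the sera overlapped in all 9 runs.

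**Figure D1:**
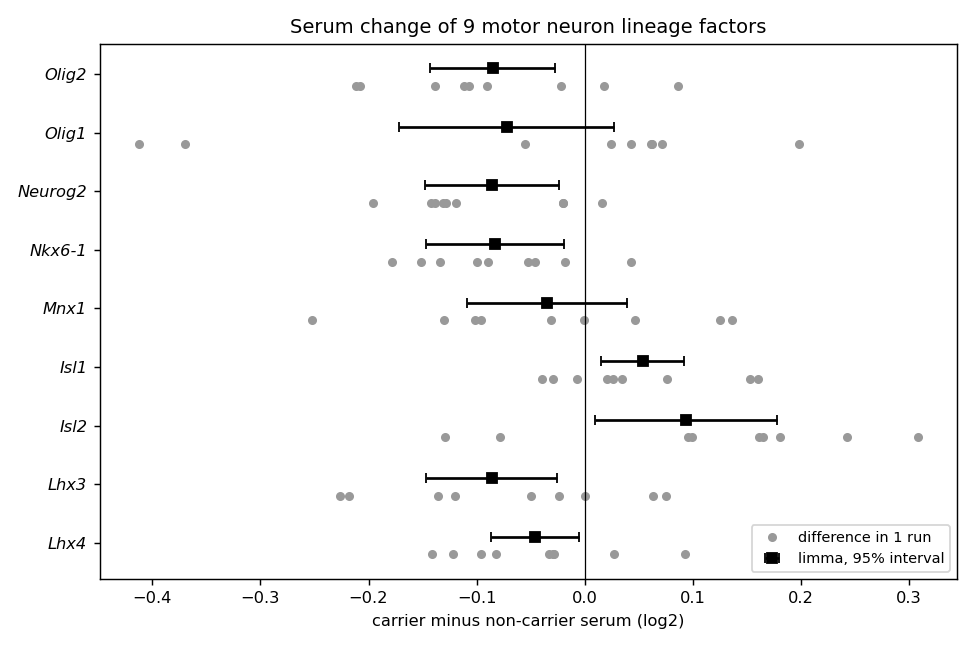
Log2 difference between carrier and non-carrier serum for the 9 factors with a row; black squares are the limma estimates with 95% confidence intervals and grey points the differences in each of the 9 runs. All estimates lie between -0.09 and 0.09, the intervals of Olig1 and Mnx1 span 0, and Olig1 has 2 runs far to the left of the others, C at -0.41 and E at -0.37. The E point of Olig1 includes the array that stands apart, at 7.73 against 8.43 and 8.53 for the other carrier arrays.

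Whether the serum difference depended on the run was tested as an interaction. An adjusted p under 0.05 was reached by 0 of the 9 factors, and by 0.127% of all genes. The lowest was that of Olig1 (p = 0.00703, limma adjusted p = 0.403), followed by Isl1 (p = 0.0511, limma adjusted p = 0.629). Without the array that stands apart, the serum changes kept their signs, from -0.10 for Neurog2 (adjusted p = 0.0724) to 0.11 for Isl2 (adjusted p = 0.105), and 0 of 9 passed. The change of Olig1 was then -0.04 and that of Mnx1 -0.02, both smaller in size than with the array.

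Run means of a factor spanned 0.36 (Nkx6-1) to 1.03 (Olig1) on the log2 scale, against serum changes of at most 0.09. By limma's F test over runs, all 9 factors passed an adjusted p of 0.05, as did 94.0% of all genes, so that passing sets the factors apart from few genes. The share of the variance that lay between runs was 83.9% for Lhx4, 83.7% for Olig2, 76.6% for Isl2, 71.4% for Olig1, 70.6% for Neurog2, 68.3% for Isl1, 56.8% for Lhx3, 44.6% for Nkx6-1 and 41.5% for Mnx1, against a median of 62.5% over all genes. The labels name no batch, so batches of EBs, assays and whatever else differs between the titles cannot be told apart here, nor can the age of 10 weeks and the 10-week run, the only one with it.

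Olig2 was highest in the motorneuron run, with a mean of 9.14, and lowest in the 10-week run, with 8.36, a 1.71-fold span. In the motorneuron run the carrier arrays read 9.04, 9.16 and 9.34 and the non-carrier arrays 8.84, 9.02, 9.17 and 9.35. In the 10-week run they read 8.33, 8.34 and 8.38 with carrier and 8.30, 8.38 and 8.44 with non-carrier serum, so the 2 runs were fully apart. Between them the means fell from C (9.04), D (9.01), A (8.98), B (8.92) and E (8.82) to F (8.64) and HB9MNs (8.45). Neighbours in this order differed at 2 of 8 steps, E over F and F over HB9MNs, by limma contrasts adjusted over the 36 pairs of runs.

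Neurog2 followed a like order at the bottom. Its mean was 7.55 in the motorneuron run, between 7.45 and 7.53 in A, B, C, D and HB9MNs, 7.28 in F and E and 6.95 in the 10-week run. The steps from D to F (adjusted p = 0.0210) and from E to the 10-week run (adjusted p = 6.92e-05, both limma) passed, and the other 6 did not. Olig1 had the widest span, 2.04-fold, from 8.99 in run A to 7.96 in HB9MNs, and only its last step, from the 10-week run to HB9MNs, passed (limma adjusted p = 0.0294). HB9MNs was thus the run with the lowest Olig1 and the second lowest Olig2, whereas its Neurog2 was in the middle. Nkx6-1 spanned 1.28-fold from 9.17 in run D to 8.81 in HB9MNs, with only the step from A to B passing.

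Isl2 ran nearly the opposite way to Olig2. It was highest in E (9.81) and the 10-week run (9.79), followed by F (9.76), HB9MNs (9.71), B (9.68) and C (9.60), and lowest in D (9.37), A (9.11) and the motorneuron run (9.01), a 1.74-fold span. The steps from C to D (adjusted p = 0.00956) and from D to A (adjusted p = 0.0124, both limma) passed. In the motorneuron run Isl2 read 8.86, 9.12 and 9.21 with carrier and 8.71, 8.86, 9.08 and 9.21 with non-carrier serum, all below every array of E, F, B, C and the 10-week run.

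The remaining postmitotic factors had orders of their own. Isl1 was highest in HB9MNs, where the carrier arrays read 10.80 and 10.82 and the non-carrier arrays 10.73 and 10.74, and lowest in run A with a mean of 10.32, with both end steps past the threshold. Mnx1 went from 9.07 in F to 8.66 in A, and 0 of its 8 steps and 8 of its 36 pairs of runs passed. Lhx3 was highest in C (9.28) and lowest in E (8.82), and Lhx4 was highest in C (10.00) and lowest in the motorneuron run (9.49). Without the array that stands apart all 9 factors still passed the F test over runs.

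**Figure D2:**
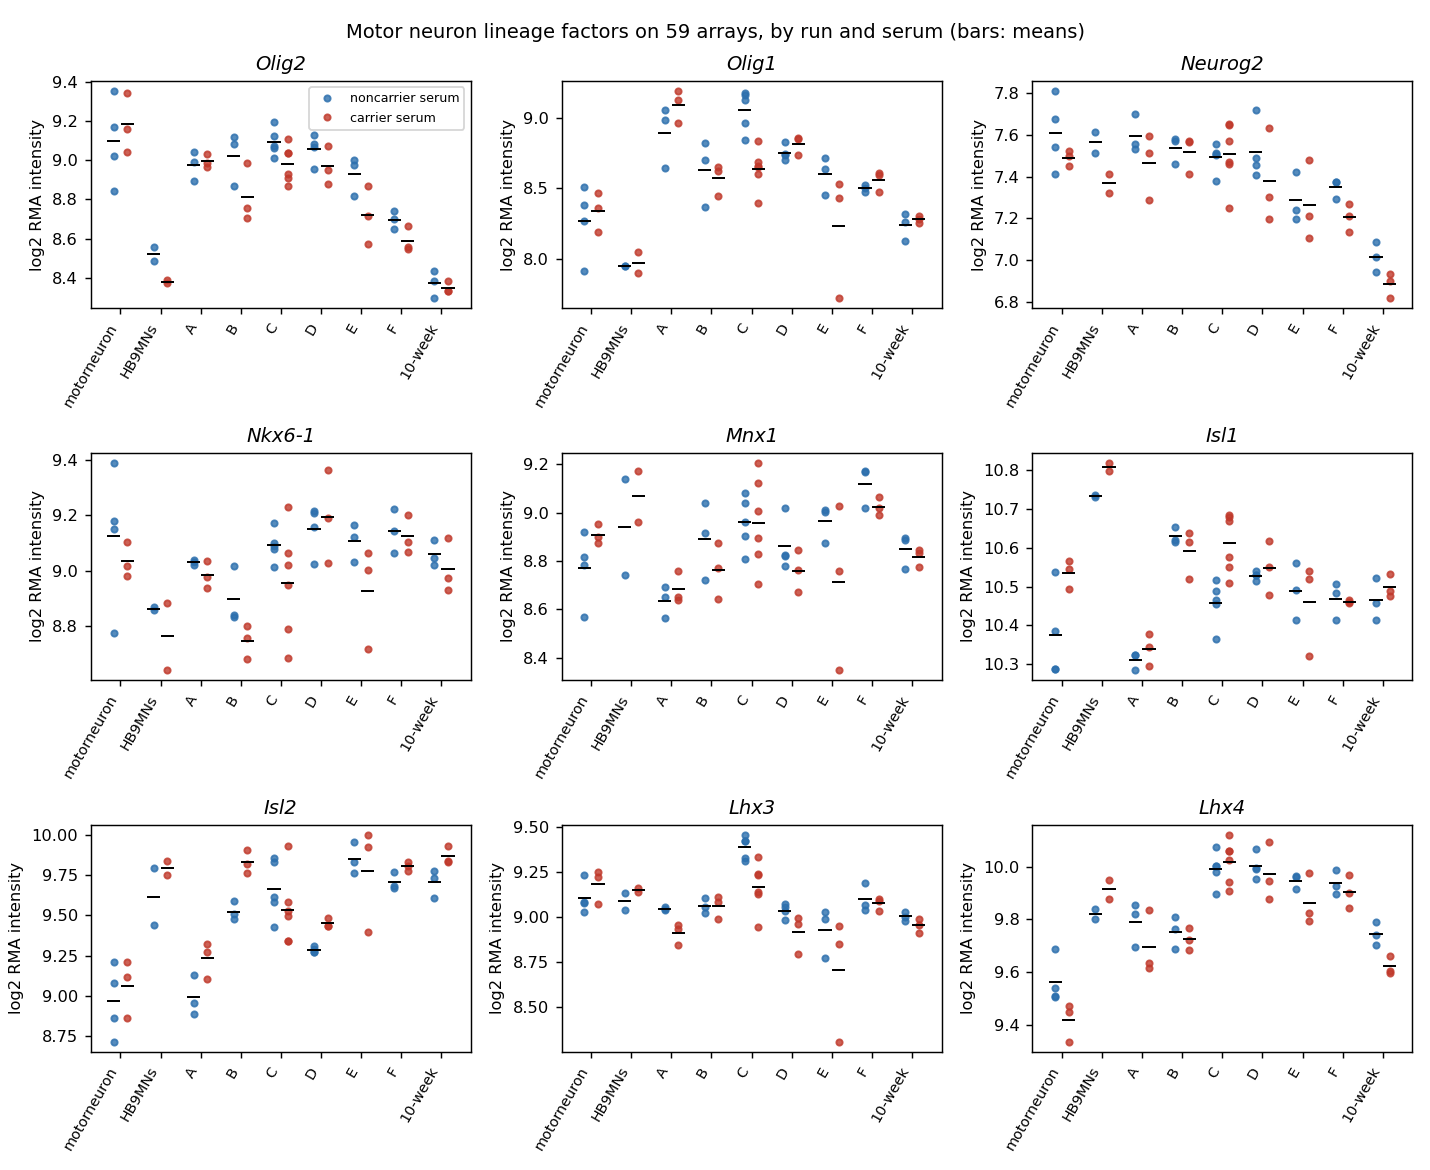
Log2 RMA intensity of each factor on all 59 arrays, by run; red points are carrier and blue points non-carrier serum, and black bars are the means of each serum in a run. Runs differ more than sera. Olig2 and Neurog2 are lowest in the 10-week run, Isl2 is lowest in the motorneuron run and run A, and single low red points in run E for Olig1, Mnx1 and Lhx3 are the array that stands apart.

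Markers of other cell types were checked beside these run differences. Of the spinal motor neuron markers, 5 of 6 had a row (Mnx1, Isl1, Chat, Slc5a7 and Prph), none below the median gene, with a summed linear intensity of 3197 to 4174 with non-carrier and 3321 to 4289 with carrier serum. All 6 pluripotency markers, all 10 of mesoderm, endoderm and blood and all 4 of visceral and branchial motor neurons were below the median gene. The summed intensity of p3, V3 and floor plate markers (5 of 5 with a row: Nkx2-2, Nkx2-9, Sim1, Foxa2 and Shh), the cells ventral to pMN, moved with the run. It was 2769 to 3233 in the 10-week run, 1812 to 2187 in E and F, and 729 to 1211 in the other 6 runs. The 10-week run, E and F are among the 4 runs with the lowest Olig2, the 3 with the lowest Neurog2 and the 3 with the highest Isl2, while HB9MNs had low Olig2 at a sum of 878 to 1063. The part of these cells in the run differences was not tested. The summed intensity of 14 other pMN patterning and progenitor genes, among them Pax6 and Sox2, did not follow Olig2. It was 7821 to 8056 in the 10-week run, 7569 to 7982 in F and 7176 to 8056 in E. It was 6283 to 7784 in the motorneuron run, 6601 to 7089 in A, 6149 to 7116 in C and 6265 to 6611 in HB9MNs. Runs B and D had 7080 to 8046 and 7555 to 8161.

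Further markers moved less than those of p3, V3 and floor plate. The sum over 11 of 11 genes of V2 and other neighbouring interneurons was 1121 to 2211 with carrier and 1210 to 2297 with non-carrier serum. It also differed by run. By its mean it was highest in the motorneuron run (1594.5 to 2297) and A (1852 to 1977), the runs with the lowest Isl2. It was lowest in E (1121 to 1326), the run with the highest Isl2. Run D, next lowest in Isl2 after A, had a sum of 1438 to 1599. For 4 of 4 sensory neuron markers it was 493 to 899 and 512 to 937, and for 5 of 5 markers of oligodendrocyte precursors, which also express Olig1 and Olig2, 499 to 850 and 518 to 915. In HB9MNs, the run with the lowest Olig1, the sum for oligodendrocyte precursors was 499 to 524, below all arrays of the other 8 runs. By their means, sums of sensory neuron, pluripotency and mesoderm, endoderm and blood markers were also highest in the motorneuron run and lowest in E. That order was thus not particular to the V2 list, where 6 of 11 genes were below the median gene. For these lists, too, the part in the result was not tested.

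The correlation across runs between progenitor and postmitotic factors was computed over the 9 run means for 20 pairs, 4 progenitor by 5 postmitotic factors. Of these, 14 were negative and 6 positive, with a median r of -0.13, and 0 of 20 passed the Benjamini-Hochberg adjustment over the 20 pairs in an exact permutation test, 1 of them having an unadjusted p under 0.05. That pair was Olig2 and Isl2, with Pearson's r = -0.69 (exact permutation p = 0.0366, adjusted p = 0.472) and Spearman's rho = -0.82 (exact permutation p = 0.0108, adjusted p = 0.108). Without the 2 runs farthest from the median of Olig2, 10-week and HB9MNs, r was -0.75 (exact permutation p = 0.0488). Of all genes, 0.729% had a lower r with Olig2 than Isl2 had. The relation therefore did not pass the adjustment and did not rest on the 2 runs extreme in Olig2. The runs lowest in Isl2, motorneuron and A, were not left out together. Over the non-carrier arrays alone r was -0.48 (exact permutation p = 0.183).

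Neurog2 and Isl2 had r = -0.60 (exact permutation p = 0.0776, adjusted p = 0.472) and rho = -0.87 (exact permutation p = 0.00451, adjusted p = 0.0902), and r = -0.57 without the 10-week run and E. For Neurog2, 8.36% of all genes had a lower r. For Nkx6-1 and Isl1, r was -0.62 (exact permutation p = 0.0768, adjusted p = 0.472) and rho -0.33, and r was 0.44 without HB9MNs and B. For Olig1 and Isl1, r was -0.59 (exact permutation p = 0.0945, adjusted p = 0.472) and rho -0.25, and r was 0.61 without HB9MNs and A. The relations of both with Isl1 thus rested on those runs. Of the 20 pairs, 8 changed the sign of r when 2 runs were left out. The highest positive pair was Neurog2 and Lhx3, with r = 0.42 (exact permutation p = 0.262, adjusted p = 0.725).

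**Figure D3:**
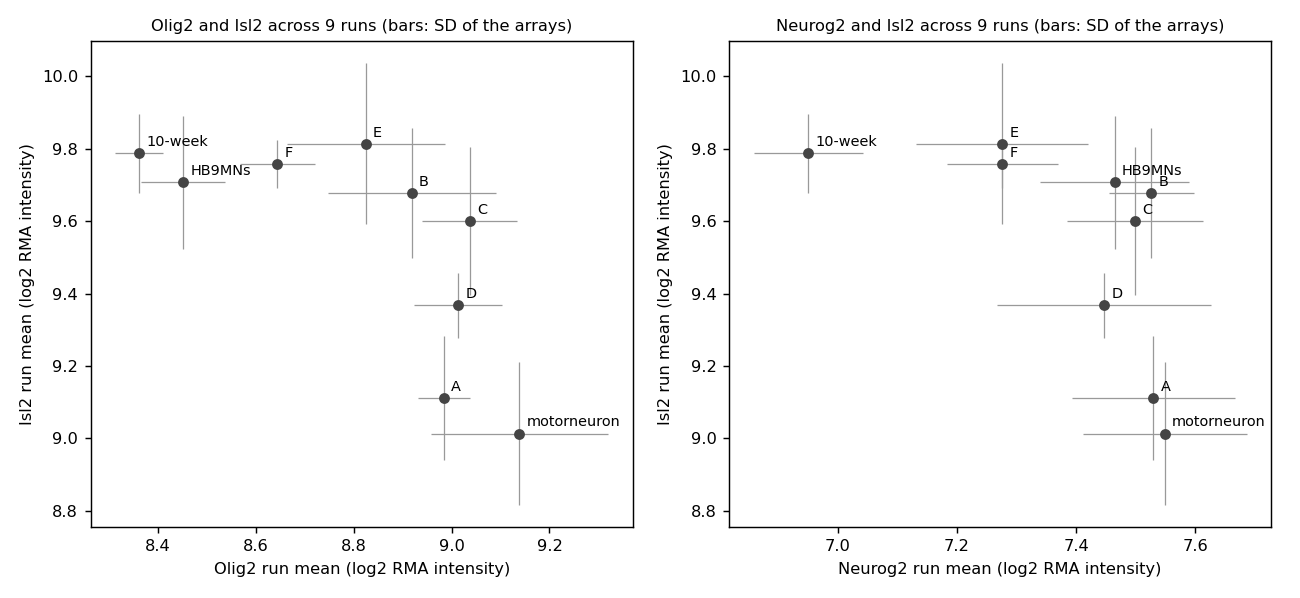
Mean log2 RMA intensity of Isl2 in each of the 9 runs against that of Olig2 (left) and Neurog2 (right); points are runs and bars the SD of the arrays of a run. Isl2 is high in the runs with low Olig2 and falls steeply among those with Olig2 near 9, from C at 9.60 to the motorneuron run at 9.01.

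Within a class, factors ran together more often than across classes, as a description. Across runs the 6 progenitor pairs had a median r of 0.36, with 0.74 for Olig2 and Neurog2 and 0.65 for the neighbouring genes Olig2 and Olig1. The 10 postmitotic pairs had a median r of 0.43, 9 of them positive, from -0.17 for Isl2 and Lhx3 to 0.56 for Mnx1 and Isl2. The points share runs, so these values are not independent.

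Arrays of the same run and serum gave another picture. With each array taken as its difference from the mean of its run and serum, Olig2 and Isl2 had r = 0.28 over 59 arrays, and 0.19 over the 58 without the array that stands apart. Over the arrays of both sera within single runs of at least 6 arrays, with the serum difference left in, their r was negative in 6 of 8 runs, between -0.69 and 0.85. Neurog2 and Isl2 had r = -0.31 over 59 arrays and -0.19 over 58, and within single runs r was negative in 8 of 8, between -0.64 and -0.16. Olig2 and Olig1 kept a positive r, 0.67 over 59 and 0.66 over 58 arrays. Olig2 and Neurog2, the closest progenitor pair across runs, had r = -0.03 over 59 arrays. The 20 pairs between classes had a median of 0.10 over 59 arrays and -0.02 without the array that stands apart, and the postmitotic pairs a median of 0.29 and 0.12. The 1 array thus carried much of the positive relation among postmitotic factors within runs.

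**Figure D4:**
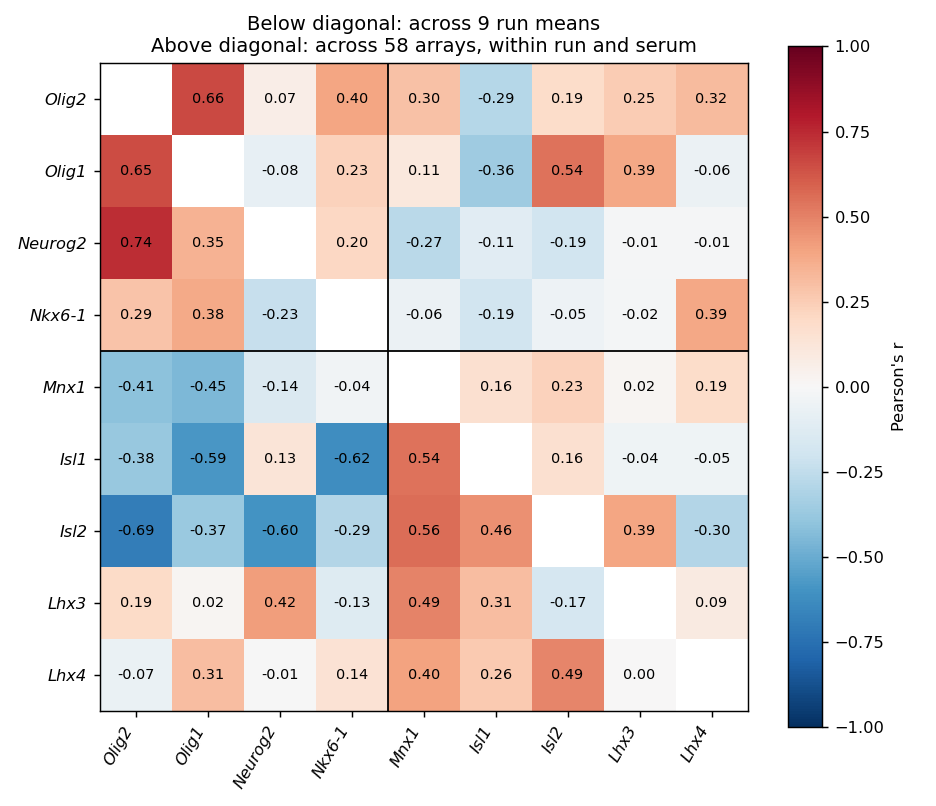
Pearson's r between all pairs of the 9 factors, across the 9 run means (below the diagonal) and across 58 arrays as differences from the mean of their run and serum, without the array that stands apart (above); black lines part progenitor from postmitotic factors. The lowest value at the lower left is -0.69 for Olig2 and Isl2, a pair at 0.19 at the upper right, while Olig2 and Olig1 are red in both (0.65 and 0.66).

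The other genes of the pathway were read from lists of pMN patterning and progenitor genes (14 of 15 with a row), cofactors and other postmitotic factors (14 of 15) and motor neuron effector genes (15 of 17). In the first list 1 gene fell with carrier serum and 13 did not pass, with a median change of -0.02. Of all genes 1.65% fell and 0.683% rose. That gene was Ptch1, the Hedgehog receptor and a target of the pathway (log2 change -0.10 ± 0.03, SE, limma adjusted p = 0.0416), with a lower carrier mean in 8 of 9 runs. Pax6, which places the domain, had a change of -0.05 (limma adjusted p = 0.339). Among the cofactors 1 of 14 fell, Lmo4, a LIM-only protein that competes for Ldb1 (-0.12 ± 0.03, SE, limma adjusted p = 0.0442), with a median of 0.01 over the list. Ldb1 itself had a change of -0.06 (limma adjusted p = 0.0699), with a lower carrier mean in 8 of 9 runs.

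Among the effector genes 4 of 15 rose, against 0.683% of all genes, and 11 did not pass, with a median change of 0.03. They were Slc5a7, the choline transporter of cholinergic neurons (0.15 ± 0.04, SE, limma adjusted p = 0.0410), the neurofilament subunits Nefh (0.09, adjusted p = 0.0374) and Nefl (0.06, adjusted p = 0.0250), and Stmn2, a neuronal microtubule regulator (0.06, adjusted p = 0.0400). Chat, which makes acetylcholine, had a change of -0.02 (adjusted p = 0.533). Nefm, another neurofilament subunit of the list, had a change of 0.02 (limma adjusted p = 0.577). For Tubb3, a neuronal tubulin, it was -0.03 (limma adjusted p = 0.492). The 6 genes of the 3 lists had adjusted p from 0.0250 to 0.0442, and without run A, B, D, E or 10-week 0 of the genes of the 3 lists passed, 2 passed without run F and 11 without run C, where 8.16% of all genes passed. Of the marker lists, Slc5a7 was the only gene past the threshold. In 5 of the other lists the gene with the lowest p had a change of 0.05 for Foxn4, 0.11 for Shh, 0.06 for Pou4f1, 0.11 for Nanog and 0.14 for T, a mesoderm factor, with unadjusted p from 0.00567 (T) to 0.0985 (Foxn4) and none past the adjusted threshold.

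The genes whose log2 values were most like each factor over the 59 arrays were named by the highest Pearson's r, as a description with no test. For Olig2 they were Maf (r = 0.78), Nrsn2 (0.77) and Rnft2 (0.76), and for Olig1 Adcy8 (0.87), Sez6 (0.84) and Csmd2 (0.84). For Neurog2 they were Nbr1 (0.76), Parp6 (0.75) and Trappc1 (0.74), and for Nkx6-1 they included Phrf1 (0.78) and Neurl4 (0.76). None of these lists held another of the 9 factors.

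Among the postmitotic factors, Isl2 had Gipc1 (0.84), Slc10a4 (0.84) and Cenpa (0.83), and Lhx4 had Prkch (0.86), Efnb2 (0.82) and Pip4k2b (0.80). For Isl1 they were Mtx2 (0.69), Sept2 (0.68) and Capza2 (0.67), for Lhx3 Vps28 (0.74), LOC735298 (0.74) and Ebpl (0.72), and for Mnx1 Shc2 (0.58), Mrpl21 (0.56) and Mrpl51 (0.55). Mnx1, the factor with the smallest share of variance between runs, had the lowest r with its closest gene. How far likeness held within runs differed between pairs. For Lhx4 and Prkch r was 0.93 over the 9 run means and 0.26 over arrays as differences from their run and serum. For Isl2 and Gipc1 it was 0.86 and 0.68, for Nkx6-1 and Phrf1 0.79 and 0.77, and for Mnx1 and Shc2 0.55 and 0.63.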

How the data were processed

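EBs in 59 samples were profiled on Affymetrix mouse exon arrays. The authors deposited RMA intensity values on a linear scale, 1 per gene, averaged over its exons per the study's methods. The labels name RMA and Affymetrix Expression Console, and the methods name aroma.affymetrix and removal of outlying arrays. RMA was applied over arrays together, which can draw array distributions towards each other, and averaging exons hides isoforms. The log2 of the values was taken with no pseudocount.

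Serum groups came from the labels and runs from titles. Serum changes, run differences and the serum by run interaction were fitted with limma 3.58.1 in R 4.3.3 over 19613 genes (lmFit, eBayes, Benjamini-Hochberg, threshold 0.05), two-sided. Correlations across runs were tested with exact permutation over 362880 pairings (Python 3.11.15, numpy 2.4.6). The procedure was tested on simulated data. Named genes were the members, the 3 genes with the highest r to each over all arrays, up to 4 genes past the threshold of each list or the one with the lowest p, and Chat, Pax6 and Ldb1. Nefm and Tubb3 were named besides, to stand beside the cytoskeleton genes that passed. The members and lists were chosen with earlier results of these data known. The study's batch correction, a linear model on Olig2, Mnx1, Isl1 and Lhx3 fitted on non-carrier arrays, was not repeated. As an alternative these 4 factors were added as covariates to the limma fit. Other alternatives were the block, run C in 2 blocks, centring, quantile normalization, filters, array weights, a pseudocount of 16 and each run left out. Leaving out the array that stands apart was added after the data were seen. A few genes that this rule names are not reported here.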

Additional observations from a re-analysis of the deposited data

How the results depend on the processing

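Of the 9 factors, 0 passed in the fit as reported. With arrays centred on their median or with quantile normalization 1 passed, with array weights 5, without run motorneuron 2, without run C 2 and with the 4 factors as covariates 3 of the 5 others. The share of all genes that passed was 2.33% as reported, 2.28% with centring, 2.26% with quantile normalization, 14.3% with array weights, 3.07% without run motorneuron, 8.16% without run C and 31.2% with the covariates. Olig2 passed with centring (adjusted p = 0.0384), array weights (0.0293) and without run motorneuron (0.0119), and Isl2 with array weights (0.00749), without run C (0.0190) and with the covariates (0.00296). Mnx1 and Lhx4 passed under none of the alternatives run. The change of Olig1 turned to 0.0057 without run C and to 0.10 with the covariates (adjusted p = 0.0347), and its cause was not tested. For the 3 related lists, with those shares of all genes beside them, 6 genes passed as reported, against 0 with no run block, 2 with centred arrays, 14 with array weights, 13 with the covariates, and 0 without run A, B, D, E or 10-week, 2 without F and 11 without C. Without A, B, D, E, F or 10-week between 0.540% and 1.38% of all genes passed, and with no run block 0.

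The labels do not say whether title numbers shared by both sera pair the arrays, and 8 pairs are too few to decide it. The r between same-numbered arrays was above 0.1 for 1 of 8 pairs, and 4 of 12 arrays were closest to their own number. With the numbers as a replicate block 1 of the 9 factors passed, Olig2 (log2 change -0.10, adjusted p = 0.0248), and 513 genes in all against 457. The correlation of Olig2 and Isl2 turned to 0.28 across arrays within runs, and lay between -0.84 and -0.48 in the 17 settings over runs, with a lowest adjusted p of 0.0827. Of the 20 pairs, 11 changed sign in some setting and 0 passed in any. All 9 factors differed between runs in every setting run but one, the non-carrier arrays taken alone, where Nkx6-1 did not pass (adjusted p = 0.0631). No detection call for single probes was used here, so dim genes could not be told from background.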
